A study of Rattus norvegicus with 6 samples.

Results

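The genes described here are the 32 rat genes of a list of cholesterol and fatty acid synthesis, found by gene name among the 22250 genes of the deposited count table. Each name had a single row. They comprise 19 enzymes counted in the sterol arm, which runs from acetyl-CoA to cholesterol. The 19 include Ggps1, whose product, geranylgeranyl diphosphate, lies off that route. The list also holds 6 genes of the fatty acid arm, 5 regulators of the pathway and 2 genes that move or store sterols. RNA was measured in neonatal rat cardiomyocytes, wild-type heart muscle cells freed by collagenase from the hearts of Sprague-Dawley rats 1 day old and grown in medium with foetal bovine serum. The cells received either 3Cl-HBA at 40 µM for 48 h or the solvent DMSO for 48 h, with 3 libraries per treatment. The series is titled for activation of HCAR1, a receptor for lactate, and the question put to these genes is whether their transcripts differed after 3Cl-HBA. Libraries are numbered 1 to 3 with no mention of separate cultures or animals, so p-values measure only the spread between these samples, which may be technical.

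Cells make cholesterol by joining acetyl-CoA units into mevalonate, turning mevalonate into isoprenoids, joining isoprenoids into squalene, closing squalene into the ring of lanosterol, and trimming lanosterol to cholesterol. Fatty acids are built from the same acetyl-CoA by carboxylation, repeated chain extension and desaturation. Both arms are switched on by sterol regulatory element binding proteins, SREBPs, transcription factors held in the endoplasmic reticulum by INSIG proteins when sterols are plentiful and carried to the Golgi by SCAP when sterols are scarce. SREBP-2, from Srebf2, mainly drives sterol genes, and SREBP-1, from Srebf1, mainly drives fatty acid genes. Serum in the culture medium supplies cholesterol from outside the cell.

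The 3Cl-HBA libraries held 14607337 to 17202191 reads assigned to genes and the DMSO libraries 13240800 to 14499065, the treated group being the deeper throughout. The 32 genes took 0.234% to 0.237% of reads after 3Cl-HBA and 0.234% to 0.249% in DMSO. Heart muscle markers were abundant in both groups, and the summed level of 8 of them, in CPM, read counts scaled to library size, was 24480 to 24830 after 3Cl-HBA and 24340 to 26010 in DMSO. The myosin genes Myh7 and Myl2 and the calcium release channel gene Ryr2 had an unadjusted p under 0.05, with log2 fold changes of -0.097, -0.14 and -0.17 and adjusted p of 0.959, 0.959 and 0.914 (edgeR). The other 5 markers ran from -0.035 (Atp2a2) to 0.034 (Tnni3), and the part of these values in the results below was not tested. Fibroblast markers, 6 of 7 found, were also abundant and summed to 15180 to 15460 CPM after 3Cl-HBA and 15040 to 15940 CPM in DMSO. The levels below are those of the whole culture and cannot be assigned to heart muscle cells alone. In such bulk samples fewer cells of a type and less RNA per cell cannot be told apart. The corresponding sums after 3Cl-HBA and in DMSO were 2446 to 2488 and 2385 to 2616 CPM for smooth muscle and pericyte markers (6 of 6 found), 549 to 574 and 527 to 605 CPM for endothelium (5 of 6), 329 to 341 and 308 to 336 CPM for macrophages (7 of 7), and 22.8 to 28.6 and 23.1 to 26 CPM for Schwann cells (5 of 5). Adipocyte markers, 6 of 6 found, summed to 4.65 to 6 CPM after 3Cl-HBA and 4.475 to 5.76 CPM in DMSO. Of these the adipokine gene Adipoq had at most 1 read in a 3Cl-HBA library and 0 in DMSO, Plin1, Lep, Cidec and Retn had at most 5 reads in a library, and only Cfd, at 4.36 ± 0.56 CPM after 3Cl-HBA and 4.6 ± 0.671 CPM in DMSO (SD, n = 3 each), entered the test.

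Nearly the whole sterol route was expressed, at levels that differed widely from step to step. Levels between genes are compared as the deposited FPKM, reads per kilobase of gene length and scaled to library size, given as mean ± SD with n = 3 in each group. At the start of the mevalonate segment, Hmgcs1, which makes HMG-CoA, stood at 40.6 ± 1.97 FPKM after 3Cl-HBA and 42.4 ± 2.71 FPKM in DMSO. The enzymes beside it were lower. Acat2, the cytosolic thiolase that supplies acetoacetyl-CoA, had 7.82 ± 0.778 and 7.14 ± 0.491 FPKM, the mevalonate kinase Mvk 14.6 ± 2.3 and 14.6 ± 0.663 FPKM, the phosphomevalonate kinase Pmvk 18.9 ± 1.8 and 18.7 ± 0.762 FPKM, and the decarboxylase Mvd 8.3 ± 0.674 and 8 ± 0.558 FPKM, each pair after 3Cl-HBA and in DMSO. In the isoprenoid segment, the isomerase Idi1 had 22.8 ± 0.74 FPKM after 3Cl-HBA and 23.4 ± 4.01 FPKM in DMSO. The farnesyl diphosphate synthase Fdps, at 43.6 ± 3.02 FPKM after 3Cl-HBA and 47.8 ± 2.04 FPKM in DMSO, was the most abundant sterol arm transcript. Ggps1, which extends farnesyl diphosphate to geranylgeranyl diphosphate, was far lower, at 4.92 ± 0.418 and 4.92 ± 0.432 FPKM.

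The later sterol steps alternated between abundant and scarce transcripts. Squalene is made by Fdft1, at 18.4 ± 0.365 FPKM after 3Cl-HBA and 18.9 ± 0.324 FPKM in DMSO, and oxidised by Sqle, at 28.1 ± 0.127 and 28.1 ± 1.65 FPKM. The next enzyme, lanosterol synthase Lss, had only 3.92 ± 0.348 FPKM after 3Cl-HBA and 4.71 ± 0.518 FPKM in DMSO. The lanosterol demethylase Cyp51 was more abundant than its neighbours, at 39.7 ± 0.245 FPKM after 3Cl-HBA and 41.1 ± 4.35 FPKM in DMSO, and the methylsterol oxidase Msmo1 had 26.3 ± 2.87 and 26.5 ± 1.56 FPKM. Intermediate levels of 10.8 to 14.4 FPKM in group means were found for the dehydrogenase Nsdhl, the isomerase Ebp, the desaturase Sc5d and Dhcr7, the reductase of the final step. The lowest were the sterol reductase Tm7sf2, with 3.86 ± 0.362 FPKM after 3Cl-HBA and 4.2 ± 0.759 FPKM in DMSO, and the ketoreductase Hsd17b7, with 2.89 ± 0.119 and 2.72 ± 0.261 FPKM. Averaged over the 6 libraries, the sterol enzymes ranked from 1786 (Fdps) to 10797 (Hsd17b7) among all genes in FPKM.

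**Figure D1:**
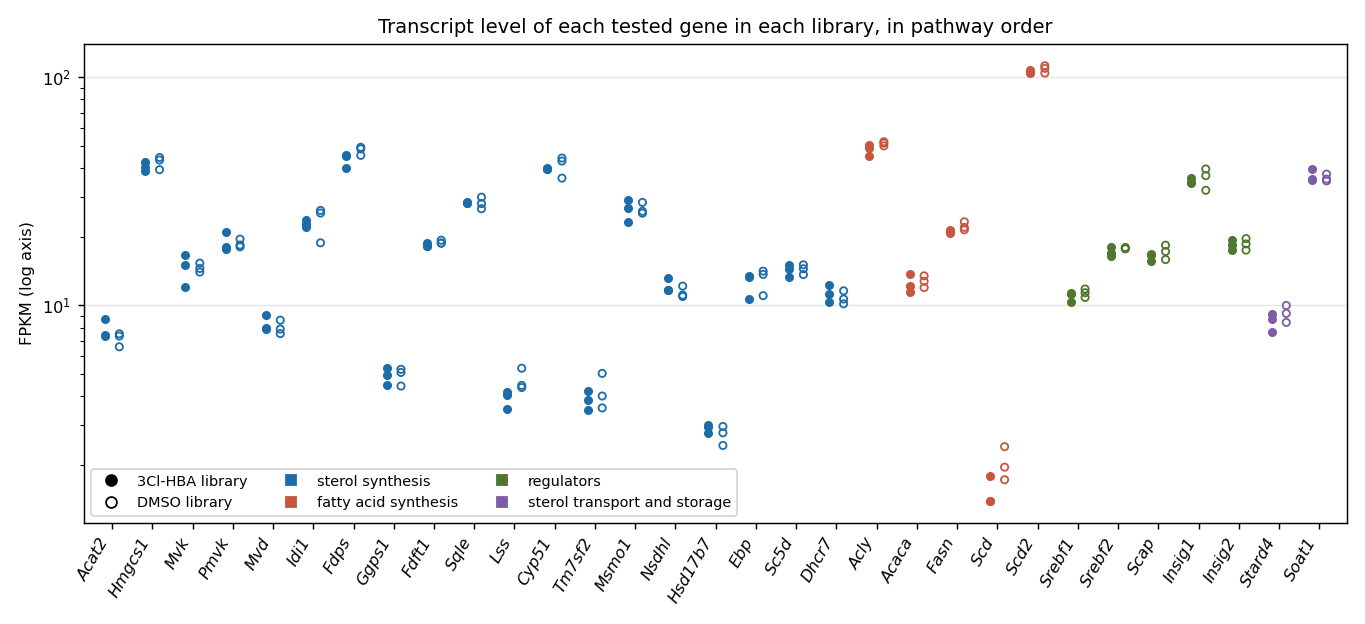
FPKM on a log axis for the 31 tested genes in pathway order, with filled points for the 3 3Cl-HBA libraries on the left of each gene and open points for the 3 DMSO libraries on the right. Scd2 lies above 100 FPKM in each library, Fdps, Cyp51 and Hmgcs1 near 40, and Scd below 3. Elovl6, at or near 0, is not drawn.

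The fatty acid arm was led by a single desaturase. Scd2, a stearoyl-CoA desaturase that makes monounsaturated fatty acids, had 106 ± 1.44 FPKM after 3Cl-HBA and 109 ± 4.08 FPKM in DMSO and ranked 643 among all genes, the highest of the 32. Its relative Scd, the form known for liver and fat in rodents, had 1.52 ± 0.23 FPKM after 3Cl-HBA and 2.03 ± 0.347 FPKM in DMSO. The elongase gene Elovl6 was barely detected, with 2, 4 and 0 reads in the 3Cl-HBA libraries and 3, 1 and 3 reads in the DMSO libraries, and was too low to enter the test. Acly, which releases acetyl-CoA from citrate, had 48.2 ± 2.62 FPKM after 3Cl-HBA and 51.2 ± 1.07 FPKM in DMSO. The acetyl-CoA carboxylase Acaca had 12.4 ± 1.15 and 12.7 ± 0.751 FPKM, and fatty acid synthase Fasn 21.1 ± 0.314 and 22.2 ± 0.936 FPKM. Summed over each arm, sterol enzymes gave 335 ± 9.12 FPKM after 3Cl-HBA and 343 ± 16.7 FPKM in DMSO, and fatty acid genes 189 ± 4.62 and 197 ± 5.26 FPKM, of which Scd2 made up the larger part.

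Regulators were expressed at middle levels and in similar proportion in both groups. Srebf2 had 17.2 ± 0.792 FPKM after 3Cl-HBA and 17.8 ± 0.131 FPKM in DMSO, and Srebf1 10.9 ± 0.55 and 11.3 ± 0.482 FPKM, so that the ratio of Srebf2 to Srebf1 was 1.57 ± 0.153 after 3Cl-HBA and 1.57 ± 0.0621 in DMSO. Scap, the sterol-sensing escort, had 16.4 ± 0.582 and 17.2 ± 1.24 FPKM. Insig1, itself an SREBP target, had 35.1 ± 0.94 FPKM after 3Cl-HBA and 36.2 ± 3.9 FPKM in DMSO, 1.9 ± 0.0596 and 1.96 ± 0.281 times its relative Insig2. Of the genes that handle sterols, the transfer protein gene Stard4 had 8.53 ± 0.794 FPKM after 3Cl-HBA and 9.21 ± 0.784 FPKM in DMSO, and Soat1, which esterifies cholesterol for storage, 36.9 ± 2.29 and 36.2 ± 1.29 FPKM.

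Neither arm held a transcript that passed the test. Of 31 tested members, 0 had a Benjamini-Hochberg adjusted p under 0.05 with edgeR's quasi-likelihood test over all 13903 tested genes, of which 0 (0%) were called. The members' smallest adjusted p was 0.959, against 0.845 over all genes. At an unadjusted p under 0.05 there were 3 members, all lower after 3Cl-HBA, where the share over all tested genes was 5.11% in both directions (711 genes), with 2.59% for lower and 2.52% for higher genes. DESeq2 and limma-voom also called 0 genes, with 405 and 704 at an unadjusted p under 0.05. The 3Cl-HBA libraries lay entirely below the DMSO libraries in 2 members and entirely above them in 0, against 5.22% and 5.24% of all tested genes. Log2 fold changes, 3Cl-HBA minus DMSO, were below 0 in 23 of 31 members, against 50.2% of all tested genes. That count was 17 without DMSO replicate 2, 19 without DMSO replicate 1 and 21 to 23 without any other single library. Their median was -0.036, against -0.0005 over all tested genes. The count of 3 at an unadjusted p under 0.05 became 1 without 3Cl-HBA replicate 2 or 3, or without DMSO replicate 1 or 2, and 7 without DMSO replicate 3.

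**Figure D2:**
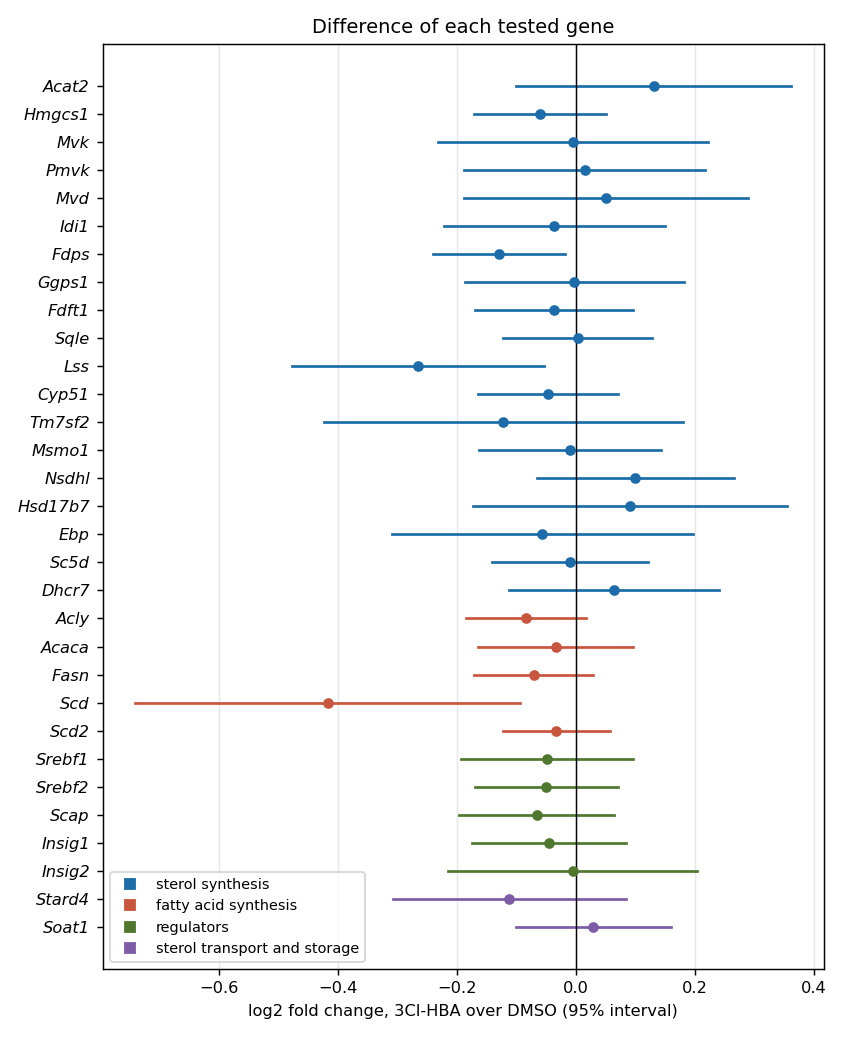
Log2 fold change of each of the 31 tested genes, 3Cl-HBA over DMSO, as points with 95% intervals from the edgeR fit, in pathway order from top to bottom. The intervals of Fdps, Lss and Scd lie below 0 before any adjustment for the number of genes tested, and those of the other 28 genes include 0.

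Most of these differences had narrow 95% limits. The limits rest on the spread between these libraries, which may be technical, and so need not cover differences between cultures or animals. In 30 of 31 members the 95% limits stayed within 1.5-fold in both directions, against 80.9% of all tested genes, and the exception was Scd. The 30 included all 19 sterol enzymes. The median SE was 0.076 in members and 0.095 over all tested genes, and the limits were not compared with those of genes of similar read count. In no member was the absolute log2 fold change larger than the range of log2 CPM among the 3 libraries of each group, which happened in 5.27% of all tested genes. The median range was 0.17 in both groups for members (0.175 after 3Cl-HBA and 0.1695 in DMSO), and the median absolute log2 fold change was 0.05.

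Among mevalonate and isoprenoid genes, Fdps was the only one with an unadjusted p under 0.05. Fdps (ENSRNOG00000043377, chromosome 2, 188392858 to 188413219, minus strand, in coordinates of the deposited table, of unstated build) had 137, 137 and 121 CPM in the 3Cl-HBA libraries and 146, 148 and 137.4 CPM in the DMSO libraries. Each 3Cl-HBA library was below each DMSO library, by less than 1 CPM at the closest pair. This gave a log2 fold change of -0.13 with an SE of 0.055 and 95% limits of -0.24 and -0.018 (edgeR p 0.024, 0.959 after adjustment). It was -0.076 without 3Cl-HBA replicate 3. Acat2 had the highest log2 fold change of all 31 members, 0.13 (SE 0.11), with 17.7, 15.3 and 15 CPM after 3Cl-HBA and 15, 13.4 and 15.4 CPM in DMSO. Its groups overlapped, and without 3Cl-HBA replicate 1 it was at 0.053, below Nsdhl at 0.13 and Dhcr7 at 0.13. The near copy Acat2l1, with 16, 29 and 22 reads after 3Cl-HBA and 27, 29 and 24 in DMSO, may share reads with Acat2. The other mevalonate and isoprenoid genes ran from -0.06 (Hmgcs1) to 0.051 (Mvd), and of all 8, 5 were below 0.

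Between squalene and cholesterol, Lss had the lowest log2 fold change. Lss (ENSRNOG00000054549, chromosome 20, 12842884 to 12870497, minus strand, same build) had 18.8, 16 and 18.3 CPM in the 3Cl-HBA libraries and 23.9, 20.1 and 19.8 CPM in the DMSO libraries. The groups did not overlap, and DMSO replicate 1 was the highest library. This gave a log2 fold change of -0.27 with an SE of 0.11 and 95% limits of -0.48 and -0.053 (edgeR p 0.015, 0.959 after adjustment), and of -0.17 without DMSO replicate 1. The enzymes before and after it did not share this size. Fdft1 was at -0.036 (SE 0.066), Sqle at 0.0032 (SE 0.062) and Cyp51 at -0.048 (SE 0.058). Of the 8 genes from lanosterol to cholesterol, 5 were below 0 and 3 above, with a median of -0.01 and a range of -0.12 (Tm7sf2) to 0.1 (Nsdhl). Tm7sf2 overlaps Vps51 by 1066 bases on the same strand, Vps51 had more reads (446 against 136 on average), and reads of the pair may be shared.

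Each tested gene of the fatty acid arm was below 0, by small amounts except in Scd. Scd (ENSRNOG00000013552, chromosome 1, 264160129 to 264172729, minus strand, same build) had 117, 107 and 98 reads in the 3Cl-HBA libraries and 122, 156 and 102 in the DMSO libraries, or 7.98, 6.26 and 6.24 CPM after 3Cl-HBA and 8.73, 10.7 and 7.73 CPM in DMSO. The groups overlapped, since 3Cl-HBA replicate 1 was above DMSO replicate 3. On the log2 scale Scd differed by -0.42 with an SE of 0.16 and 95% limits of -0.74 and -0.094 (edgeR p 0.013, 0.959 after adjustment), a level 25.1% lower. It was -0.28 without DMSO replicate 2, the highest library. Scd2, with 531, 532 and 544 CPM after 3Cl-HBA and 551, 566 and 528 CPM in DMSO, was at -0.033 (SE 0.044). The ratio of Scd2 to Scd in FPKM was 59, 75.4 and 77.3 in the 3Cl-HBA libraries and 55.9, 46.7 and 60.5 in the DMSO libraries. Scd has near copies, so reads can be split between them. Scd4 had 0 to 6 reads in a library, and LOC681458, annotated in the deposited table as similar to another desaturase, had 54, 59 and 55 reads after 3Cl-HBA and 41, 67 and 46 in DMSO.

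Acly and Fasn, the entry and the core of fatty acid synthesis, had log2 fold changes nearer to 0. Acly had 212, 197 and 218 CPM after 3Cl-HBA and 225, 222 and 217 CPM in DMSO (log2 fold change -0.085, SE 0.05). Fasn had 189, 196 and 195 CPM after 3Cl-HBA and 212, 196 and 202 CPM in DMSO (-0.071, SE 0.05). In both genes the groups overlapped, and DMSO replicate 1 was the highest library. The Acly value was -0.044 without 3Cl-HBA replicate 2, and that of Fasn was -0.039 without DMSO replicate 1 and -0.018 with length trends removed. Acaca was at -0.034 (SE 0.065).

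The 2 arms were compared through the mean log2 CPM of their tested genes in each library, a description with no test. The sterol arm stood at 5.13, 5.07 and 5.08 in the 3Cl-HBA libraries and 5.14, 5.15 and 5.04 in the DMSO libraries, a difference of -0.015 against a pooled SD of 0.05 within groups. Leaving out 1 library at a time gave differences from -0.054 without DMSO replicate 3 to 0.0034 without DMSO replicate 2, with -0.034 without 3Cl-HBA replicate 1, -0.0023 without 3Cl-HBA replicate 2 and 0.0009 without DMSO replicate 1. Within the sterol arm, the 3 genes from squalene to lanosterol differed by -0.097 against a pooled SD of 0.039, and the groups did not overlap. Of these genes Lss was at -0.27, Fdft1 at -0.036 and Sqle at 0.0032. The mevalonate, isoprenoid and lanosterol to cholesterol segments differed by 0.025, -0.0495 and 0.0035, with overlapping groups. The fatty acid arm stood at 6.73, 6.67 and 6.74 after 3Cl-HBA and 6.86, 6.87 and 6.78 in DMSO. All 3 treated libraries were below the DMSO libraries, with a difference of -0.125 (8.3% lower) against a pooled SD of 0.044. The sterol arm minus the fatty acid arm differed by 0.11 between 3Cl-HBA and DMSO, with groups that did not overlap. Both the fatty acid value and the contrast rested on Scd, the least abundant of the 5 genes. With Scd left out, which was tried only once the values were known, the fatty acid arm differed by -0.056 against a pooled SD of 0.046, the contrast by 0.041 against 0.067, and the groups overlapped in both. Log2 fold changes also varied slightly with gene length, and the cause was not tested. Over all tested genes the median log2 fold change was 0.012 for the shortest of 5 equal length classes (138 to 1410 bases) and -0.025 for the longest (4101 to 28192 bases). The longest class holds 11 of the 31 members, and once the length trends were taken out the fatty acid arm differed by -0.099 and the contrast by 0.081.

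**Figure D3:**
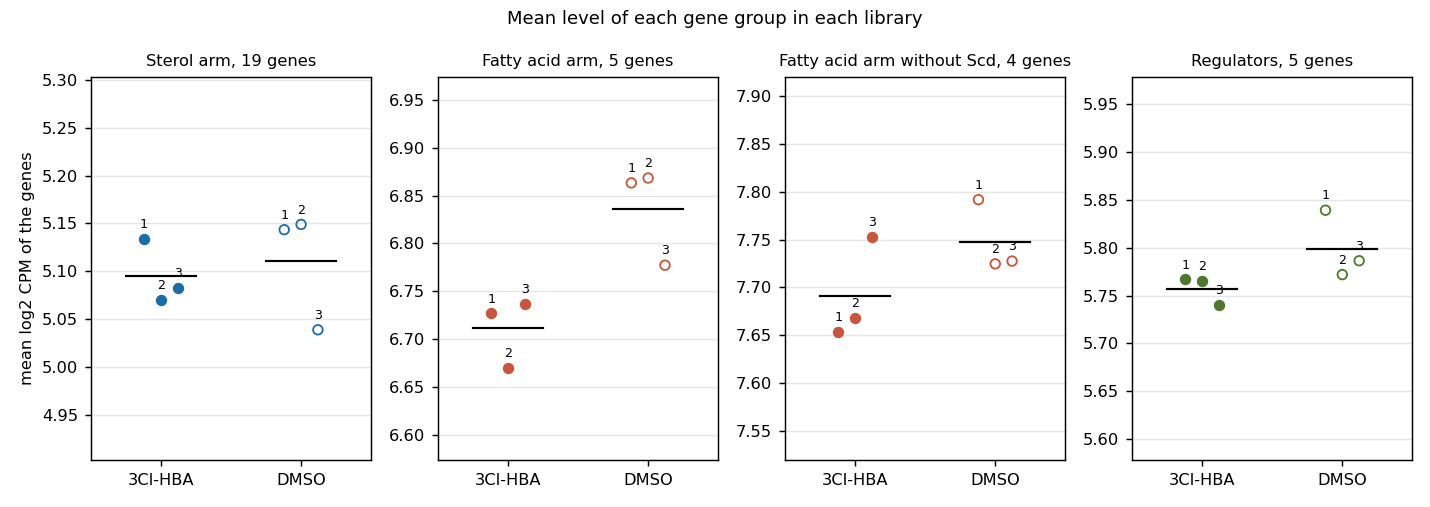
Mean log2 CPM of the tested genes of each group in each library, 3Cl-HBA (filled) left of DMSO (open), with replicate numbers beside the points and group means as lines. Each panel spans 0.4 on the log2 scale. The treated libraries lie below the DMSO libraries in the 5 fatty acid genes and in the 5 regulators, and the groups overlap in the 19 sterol genes and in the fatty acid genes without Scd.

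The 5 regulators were each slightly below 0, from -0.066 (Scap, SE 0.065) to -0.0054 (Insig2, SE 0.1), with Srebf1 at -0.049 (SE 0.072) and Srebf2 at -0.05 (SE 0.059). Their mean log2 CPM was 5.77, 5.77 and 5.74 in the 3Cl-HBA libraries and 5.84, 5.77 and 5.79 in the DMSO libraries, and the groups did not overlap, though DMSO replicate 2 was close to 3Cl-HBA replicate 1. The difference of -0.042 compares with a pooled SD of 0.027. Srebf1 overlaps Rai1 on the opposite strand by 588 bases and Idi1 overlaps Wdr37 by 100, and since the strand setting of the counting is not given, reads there cannot be told apart. Stard4 was at -0.11 (SE 0.097) and Soat1 at 0.03 (SE 0.065).

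Typical ranges among the DMSO libraries were larger than differences between treatments, in members as over all tested genes. These measures are unlike. A range over 3 single libraries tends to exceed a difference of group means even where treatments do not differ. The median range of log2 CPM within DMSO was 0.1695 for members and 0.2016 for all tested genes. Median absolute log2 fold changes were 0.0496 and 0.0692. Among the 3 DMSO libraries, replicate 3 was the lowest in 11 of the 19 sterol genes and in 16 of the 31 members, against 34.8% of all tested genes. Idi1 had 63.8, 62.6 and 66.5 CPM in the 3Cl-HBA libraries and 73.2, 71.3 and 53.1 CPM in the DMSO libraries. The treated libraries thus lay between the DMSO libraries, as they did for Cyp51, with 132.1, 134 and 132 CPM after 3Cl-HBA and 143, 148 and 121 CPM in DMSO. Insig1 had 87.1, 84.2 and 83.6 CPM after 3Cl-HBA and 89.5, 95.7 and 77.6 CPM in DMSO. For these 3 genes, named after their values were seen, the range within DMSO on the log2 scale was 0.46, 0.28 and 0.3, against absolute log2 fold changes between treatments of 0.036, 0.048 and 0.046. Over the 171 pairs of sterol genes, the correlation of deviations from the group means across the 6 libraries had a median of 0.16 and ran from -0.98 to 0.95, and over the 95 pairs of a sterol with a fatty acid gene the median was 0.098. Over all 465 pairs of members the median was 0.084, with 57.8% above 0. These pairs share libraries, depth and genes, and 6 points, centred within groups, are few. The same median over pairs of all tested genes was not computed, so these values cannot be called high or low.

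**Figure D4:**
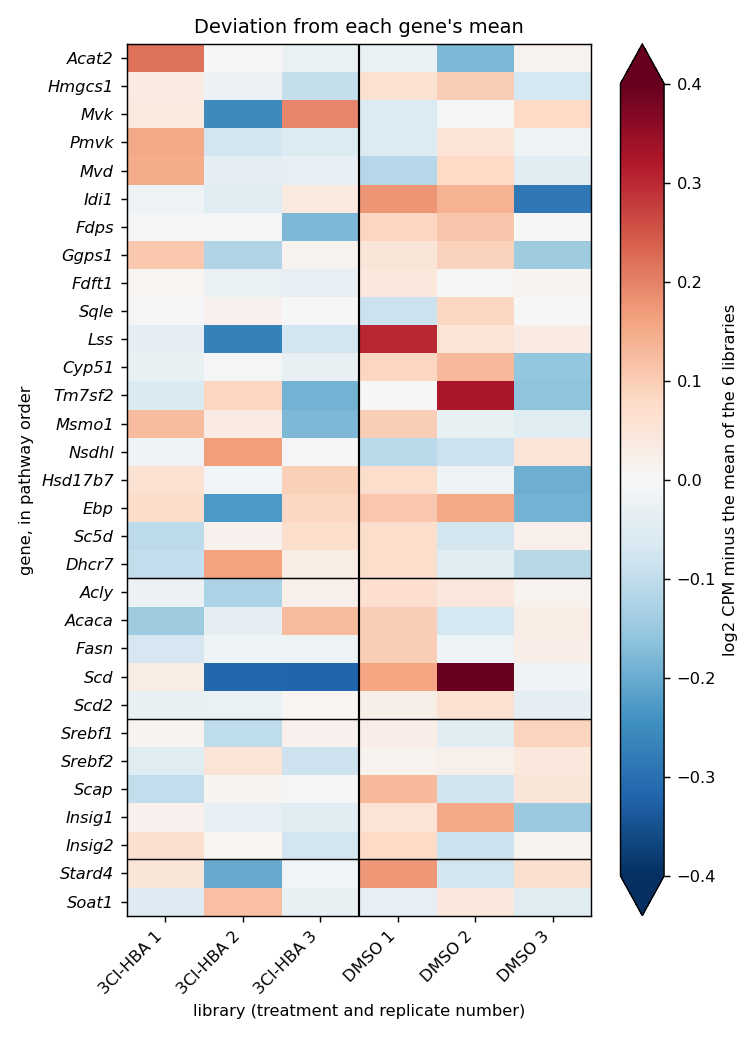
Log2 CPM of each of the 31 tested genes minus its mean over the 6 libraries, in colour, with the 3 3Cl-HBA libraries left of the vertical line and the 3 DMSO libraries right of it; horizontal lines part the sterol, fatty acid, regulator and handling genes. DMSO replicate 3 is below the gene's mean in Idi1, Cyp51, Insig1, Ebp and Hsd17b7, and Scd is above its mean in DMSO replicates 1 and 2.

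Promoter sequence is shown for Fdps and Lss, whose groups did not overlap, and for the paralogues Scd2 and Scd, which differ widely in level. Of the 32 genes, 25 matched by symbol to promoter windows from RefSeq (build GRCr8), and Pmvk, Fdft1, Sqle, Acaca, Fasn, Elovl6 and Stard4 are not shown. The 250 bases before each annotated start were searched on both strands for CCAAT, the core letters bound by NF-Y, for GGGCGG, the core letters bound by Sp1, and for TCACNCCAC, a consensus form of the sterol regulatory element. NF-Y and Sp1 are known partners of SREBPs at sterol gene promoters. CCAAT was present in 20 of the 25 genes, against 35% of 21842 windows of protein-coding genes and 34% of all 33469 windows. GGGCGG was present in 19 of 25, against 38.9% and 30.5%. TCACNCCAC was in 0 of 25, against 0.897% and 0.974%. Only this form of the element was searched, and it is rare over all windows. A count of 0 in 25 genes therefore cannot show that these promoters lack the element. Where a gene had several windows, a match in any was counted, and a match is a description of letters, not of binding. The windows below run 5′ to 3′ on the gene's strand, with CCAAT and GGGCGG, or their reverse complements ATTGG and CCGCCC, in capitals. They lie at chr2:176804817-176805066 (minus strand), chr20:12118231-12118480 (minus), chr1:253118127-253118376 (plus) and chr1:253231732-253231981 (minus).
Fdps: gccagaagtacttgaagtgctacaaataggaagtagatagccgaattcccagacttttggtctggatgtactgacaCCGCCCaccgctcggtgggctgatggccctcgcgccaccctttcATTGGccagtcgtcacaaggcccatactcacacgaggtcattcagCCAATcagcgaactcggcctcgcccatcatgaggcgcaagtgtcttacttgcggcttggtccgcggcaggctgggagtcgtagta
Lss: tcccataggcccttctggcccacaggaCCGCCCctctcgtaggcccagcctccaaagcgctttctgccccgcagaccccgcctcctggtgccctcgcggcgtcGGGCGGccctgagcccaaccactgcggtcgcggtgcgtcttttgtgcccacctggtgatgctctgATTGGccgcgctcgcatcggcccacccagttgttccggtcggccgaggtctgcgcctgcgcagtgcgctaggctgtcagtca
Scd2: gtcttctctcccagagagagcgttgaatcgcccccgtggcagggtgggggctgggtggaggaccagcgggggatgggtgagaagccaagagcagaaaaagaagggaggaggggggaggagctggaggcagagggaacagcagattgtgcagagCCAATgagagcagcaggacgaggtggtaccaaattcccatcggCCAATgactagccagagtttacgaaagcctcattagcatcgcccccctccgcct
Scd: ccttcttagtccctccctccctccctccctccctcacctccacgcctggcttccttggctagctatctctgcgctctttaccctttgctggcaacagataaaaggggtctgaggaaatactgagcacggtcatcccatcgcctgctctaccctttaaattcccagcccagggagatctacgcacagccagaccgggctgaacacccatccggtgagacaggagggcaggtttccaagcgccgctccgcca
The Fdps window held CCAAT letters beginning 130 and 85 bases before the start and GGGCGG letters at 174, and the Lss window CCAAT at 82 and GGGCGG at 223 and 147. Scd2 held CCAAT at 97 and 54 and no GGGCGG. Scd held none of the 3 motifs in these 250 bases.

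Related lipid genes outside the list gave no calls either. Of 17 genes of SREBP processing and turnover, 0 passed in either direction, 9 were below 0 and the median log2 fold change was -0.0085. The most abundant, the membrane protein gene Pgrmc1, had 95.1 ± 2.91 FPKM after 3Cl-HBA and 88.8 ± 3.02 FPKM in DMSO. Of 16 genes of sterol uptake, efflux and trafficking, 0 passed, 11 were below 0 and the median was -0.019. The lysosomal sterol carrier Npc2 had 187 ± 17.6 FPKM after 3Cl-HBA and 191 ± 8.78 FPKM in DMSO, and the endocytic receptor Lrp1 95.2 ± 4.57 and 105 ± 3.92 FPKM (log2 fold change -0.14, SE 0.043, edgeR unadjusted p 0.0032, adjusted p 0.95). Of 11 genes of isoprenoid use, such as the farnesyltransferase subunit Fnta at 40.1 ± 2.11 and 39.3 ± 0.948 FPKM and the prelamin protease Zmpste24 at 30.8 ± 2.51 and 28.9 ± 3.33 FPKM, 0 passed, 6 were below 0 and the median was -0.018. Of 15 tested genes of fatty acid supply, modification and glycerolipid synthesis, from 17 listed, 0 passed, 11 were below 0 and the median was -0.025. The polyunsaturated fatty acid elongase Elovl5 had 91 ± 3.03 FPKM after 3Cl-HBA and 90.2 ± 1.39 FPKM in DMSO, and the desaturase Fads2 47 ± 2.75 and 45.9 ± 2.83 FPKM.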

How the data were processed

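RNA depleted of ribosomal RNA with the KAPA RiboErase kit was sequenced on an Illumina platform, per the labels' protocols, which name DESeq2 as the authors' tool. The sources used here do not give the aligner, counter, strand setting, build or annotation. The deposited table holds whole-number read counts per gene, not normalised, and FPKM, both per the file headers. The FPKM equal counts over gene length and library total within a relative gap of 8.2e-08. Columns were matched to treatments through the treatment protocol and to replicates through the number in name and title.

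Counts were fitted with edgeR 4.0.16 under R 4.3.3 (scaling by TMM, genes kept by filterByExpr at a count of at least 10, glmQLFit with robust set, then glmQLFTest) over 13903 genes, and called at an adjusted p under 0.05. SEs are the absolute unshrunken log2 fold change over the square root of F. Arm means use log2 CPM with a prior count of 2. FPKM were not tested. An exact permutation test of 3 against 3 cannot go below 0.1. Alternatives used DESeq2 1.42.0 (adjusted p NA for 4143 genes, kept NA), limma-voom (limma 3.58.1), other scalings, no filter, a replicate block, removal of length trends and leaving out each library. Within and between groups, library pairs differed by more than sampling noise (chi-square per degree of freedom 2.74 to 4.93). The fit was tested on simulated data.

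The members, their arms and the related lists were chosen with earlier results of these data known. All members were described, and each related list by its 2 most abundant tested genes, of which 1 is not reported here. Symbols of 3 listed genes were not matched (Mlxipl, Col1a2, Pecam1).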

Additional observations from a re-analysis of the deposited data

How the results depend on the processing

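Over 13 alternatives, no member passed the threshold in any, and 15 of 31 members kept the sign of their log2 fold change, though the size of each of these varied by over 1.5 times: Acat2 0.0528 to 0.173, Hmgcs1 -0.1118 to -0.0263, Fdps -0.164 to -0.0756, Fdft1 -0.0484 to -0.024, Lss -0.3167 to -0.1732, Nsdhl 0.0359 to 0.1476, Hsd17b7 0.0188 to 0.1512, Acly -0.1192 to -0.044, Fasn -0.0989 to -0.0178, Scd -0.5401 to -0.2767, Scd2 -0.0622 to -0.0103, Srebf1 -0.0824 to -0.0098, Srebf2 -0.0911 to -0.0241, Scap -0.1218 to -0.0165, Stard4 -0.1757 to -0.04. Without a filter on low counts 2 genes of the whole table passed, the sterol arm minus the fatty acid arm was 0.14, which then includes Elovl6, and Ggps1 was at 0.0009. With length trends removed that contrast was 0.081 (0.0806), and Ggps1, Pmvk, Sqle and Sc5d turned to 0.021, -0.002, -0.0025 and 0.0055. Without Scd the fatty acid arm was at -0.056 and the contrast at 0.041, tried after the values were seen. Leaving out single libraries gave 0 to 8 genes past the threshold (8 without DMSO replicate 3), 1 to 7 members with an unadjusted p under 0.05 and 7 to 13 sterol genes below 0 (7 without DMSO replicate 2). It also turned the sign of 16 members, whose log2 fold changes then ranged as follows: Mvk -0.1162 to 0.1139, Pmvk -0.0602 to 0.0572, Mvd -0.0122 to 0.1059, Idi1 -0.1708 to 0.0446, Ggps1 -0.0723 to 0.0577, Sqle -0.0388 to 0.0462, Cyp51 -0.1323 to 0.0066, Tm7sf2 -0.2276 to 0.0292, Msmo1 -0.0756 to 0.0696, Ebp -0.1578 to 0.0439, Sc5d -0.051 to 0.0369, Dhcr7 -0.005 to 0.1253, Acaca -0.1116 to 0.0253, Insig1 -0.1277 to 0.0222, Insig2 -0.0503 to 0.0345, Soat1 -0.0278 to 0.0617. The cause of these shifts was not tested. The replicate block called 0 genes and 0 members. Same-numbered libraries had correlations of deviations of -0.069, -0.044 and -0.045, and none correlated best with its own number. With 3 libraries per treatment, such correlations cannot decide whether the numbers pair the samples. Elovl6 had at most 4 reads in a library, and Scd 98 to 156.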
